A study of Mus musculus with 4 samples.

Results

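To describe how the scaffold of the sarcomere was expressed in young and old muscles, 9 genes were followed in the mRNA-seq of TA muscle, which lifts the foot: Ttn, Neb, Myom1, Cmya5, Flnc, Ldb3, Actn2, Tcap and Des. They were chosen by name, with earlier results of these data known. Each had a value in 1 row of every sample, and they stand among 20340 gene labels with a value in all samples. The muscles came from wild type C57BL/6 mice aged 3 months (Young) or 20 months (Old), for which no treatment is stated, and 2 samples per age were analysed, named Young 1, Young 2, Old 1 and Old 2 after the labels. The labels do not say whether the samples of an age came from separate mice, so the p-values given here measure only the spread between these samples, which may be technical. The study text says that the sex of the mice was chosen at random. In bulk muscle, fewer fibers of a kind cannot be told apart from less RNA per fiber.

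A sarcomere is bounded by Z-discs, where the thin filaments of neighbouring sarcomeres are tied together by alpha-actinin. Titin runs from the Z-disc to the M-band in the middle of the sarcomere and acts as a spring and a template, while nebulin lies along the thin filament. Around the Z-disc, desmin filaments link neighbouring myofibrils to each other and to the cell membrane, and filamin C crosslinks actin there and at the membrane. Mutations in several of these genes cause myopathies in humans.

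The values were FPKM, in which fragments are divided by transcript length and by sequencing depth, so levels can be compared between genes per length. They hold no counts, so depth and counting error are unknown. Summed over the loci analysed here, the total FPKM of a sample lay between 226747 (Old 2) and 739302 (Young 2). The samples of an age differed more from each other than the ages did. Among 540 genes with a mean of at least 100 FPKM and no value of 0, the median log2 ratio was 1.02 for Old 1 over Old 2 and 1.00 for Young 2 over Young 1, with robust SDs across genes of 0.0986 and 0.102, against -0.05 and -0.06 for Old 1 over Young 2 and Old 2 over Young 1, with robust SDs of 0.448 and 0.415. The ratio of Old 1 to Old 2 had a sharp lower edge: it was below a log2 of 0.9 for 0.185% of these genes, against 8.70% for Young 2 over Young 1. The 10th percentiles were close, at 0.946 and 0.911, so the cut at 0.9 lies just under that of Young. The study describes independent sequencing experiments for its samples. If the samples of an age were nevertheless 1 library, each age would have n = 1 and no test below a replicate check, and this was not tested. Each sample's value is therefore printed, and ages were also compared within crossed pairs, in which the total FPKM is close: Old 1 against Young 2 (the high pair) and Young 1 against Old 2 (the low pair). This pairing was taken from the values and not from the labels.

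The members above 0 in all samples (7 of 9) differed more between the samples of an age than most genes of a similar level. Their log2 ratio of Old 1 to Old 2 ran from 1.09 for Actn2 to 2.31 for the locus of Cmya5, and that of Young 2 to Young 1 from 1.25 for Actn2 to 1.84 for the locus of Des. Tcap stood in the middle of the 7 at both ages, with ratios of 2.83 and 3.07 on the linear scale. In the plot of the ratio within an age, Tcap, Des, Ldb3 and Cmya5 lie above the band that holds most genes. No factor common to all genes therefore puts these genes on the same scale in both samples of an age.

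**Figure D1:**
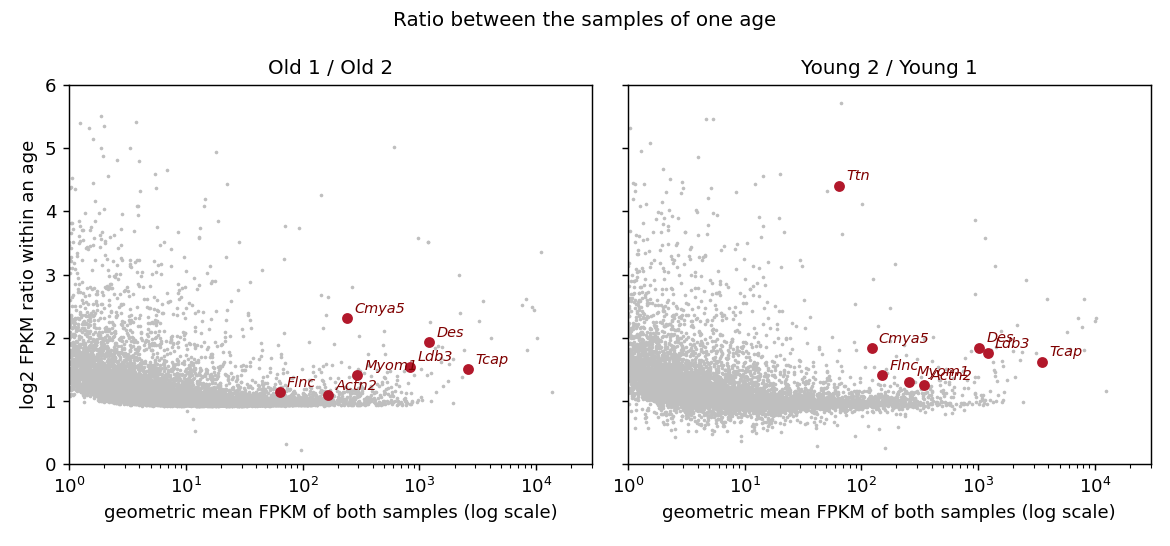
Ratio of FPKM between the samples of one age (log2, vertical axis) against the geometric mean FPKM of both (log scale, horizontal axis), for Old on the left and Young on the right. Grey points are other tested genes above 0 in all samples (points beyond the axes are not drawn) and red points are members. Most genes lie near a log2 ratio of 1, and the members lie between 1.09 and 2.31 in Old and, apart from Ttn at 4.40, between 1.25 and 1.84 in Young.

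The muscle origin of the samples was checked with marker genes. Of 10 skeletal muscle genes 8 had a value, and Mylpf, a fast-fiber myosin light chain, was between 4152 and 22820 FPKM in all 4 samples, while Ckm was listed at 0 in all 4. Of the 4 cardiac markers, Myh6 and Nppa summed to between 0.201 and 1.67 FPKM, and Myl7 and Nppb were listed at 0 in all samples. As Ckm, a major gene of skeletal muscle, was listed at 0 too, a value of 0 does not show that a gene was not expressed. Of 6 slow-fiber genes, 5 had a value, each of the 5 passed the limma threshold as higher in Old, and their sum was 421 and 1167 FPKM in Old against 27.9 and 73.0 FPKM in Young. Of 8 fast-fiber genes, 5 were above 0 in all samples, and none of these 5 was 1.5-fold apart in both crossed pairs. Of the other 3, Myh1 was called higher in Old (1318 and 156 FPKM in Old, listed at 0 in both Young samples), Tnnt3 was called lower (listed at 0 in both Old samples, 4465 and 7509 FPKM in Young), and Myh4 was listed at 0 in all samples. Smooth muscle, which also uses desmin, had 3 of 5 markers with a value, summing to 39.5 and 77.4 FPKM in Old and 48.4 and 92.3 FPKM in Young. The 5 fibroblast genes summed to 83.4 and 162 FPKM in Old and 106 and 209 FPKM in Young, with 3 of them lower in Old in both pairs and 2 higher. Of these, Col1a1 and Col3a1 were lower by at least 1.5-fold, while Dcn (1.24-fold and 1.21-fold) and Pdgfra (1.16-fold and 1.18-fold) were higher by less. The endothelial genes with a value (5 of 6) summed to 34.1 and 67.9 FPKM in Old and 41.7 and 80.7 FPKM in Young, the leukocyte genes (3 of 4) to 0.691 and 3.11 against 1.29 and 5.11 FPKM, the adipocyte genes (4 of 4) to 166 and 442 against 183 and 499 FPKM, and the Schwann cell genes (3 of 4) to 20.8 and 43.1 against 31.9 and 64.1 FPKM. Fabp4 held most of the adipocyte sum in each sample and was lower in Old in both pairs, by less than 1.5-fold. Cfd was lower in Old in the high pair and listed at 0 in Old 2 and Young 1. Adipoq went the other way, 1.97-fold and 2.17-fold higher in Old, and Plin1 was higher in both pairs by less than 1.5-fold. The part of the cell types named here in the differences below was not tested.

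Across all members, Tcap was the highest in every sample and the giant filament genes were the most irregular. Together the 9 genes made up between 1.38% (Old 2) and 1.87% (Young 2) of the FPKM of a sample, summed over the loci analysed. These loci stop in chromosome 7 or 8 in text order, so the sum leaves out later genes. Neb enters as 0 in Old 2 and Young 1. The plot of values by sample shows that Young 2 was above Young 1 and Old 1 was above Old 2 for each of the 7 members without a 0. As deposited, the values of these 7 genes also overlapped between the ages. Only Ttn, with both Old samples at 0, had its ages apart (1 of 9 lower and 0 higher, where 1.93% of the 10266 genes tested were apart and lower and 1.61% apart and higher). With each sample scaled to the same median, 2 members (Myom1 and Cmya5) were apart and higher in Old and 5 (Ttn, Flnc, Ldb3, Actn2 and Tcap) were apart and lower, while 20.4% and 23.8% of all genes tested were apart in these directions.

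**Figure D2:**
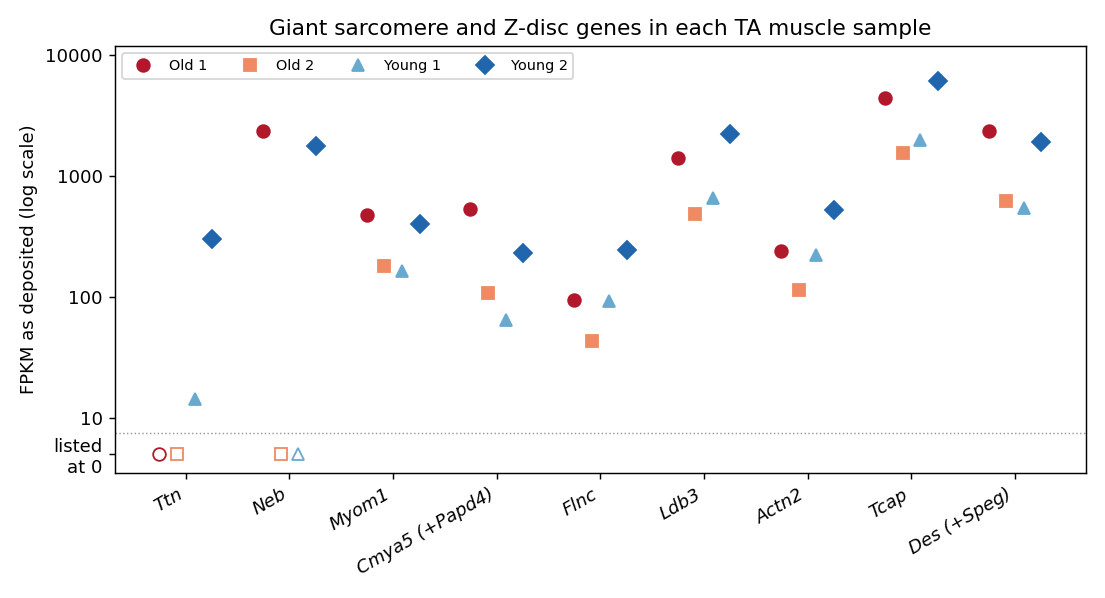
FPKM as deposited (log scale) of the 9 members in Old 1, Old 2, Young 1 and Young 2, 1 point per sample. Open symbols under the dotted line are values listed at 0, which were Ttn in both Old samples and Neb in Old 2 and Young 1. For the other 7 genes the lowest Old or Young value of each gene lies in Old 2 or Young 1 and the ages overlap.

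The comparison of log2(FPKM + 1) across all genes with limma (Benjamini-Hochberg adjustment over 10266 genes, 2 samples per age) called 1 of the 9 members, Ttn, which was lower in Old (adjusted p = 3.57e-07). Of all genes tested, 0.127% were called lower and 0.175% were called higher. The call for Ttn rests on values listed at 0 and on a variance shared by all genes. It was lost when Old 1, Old 2 or Young 2 was left out (adjusted p = 0.0781, 0.246 and 1.00 from limma, with 0 members called), and kept without Young 1 (adjusted p = 0.00353 from limma). With the same replicate number as a block the adjusted p from limma was 1.00, and with the scalings tried it ran from 0.0745 to 0.159. The fitted log2 difference was -6.07 as deposited, without Old 1, without Old 2 and with either block, and lay between -6.20 and -5.78 with the scalings. With a pseudocount of 0.1 it was -9.35 (adjusted p = 7.84e-10 from limma), so its size depends on the pseudocount. The call was also kept without the trend (adjusted p = 7.75e-07 from limma), without the filter on low values and with the highest locus per symbol. The log2 fold changes of the 7 members without a 0 ran from -1.23 for Flnc to 0.97 for the locus of Cmya5, with standard errors from 0.98 to 1.47 and adjusted p = 1.00 from limma for each, and none had an unadjusted p under 0.05. An exact permutation test over samples (two-sided) gave p = 0.333 for Ttn, the smallest that 2 samples against 2 allow, and p = 0.667 or above for the other 8.

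In the crossed pairs all 7 members without a 0 kept 1 direction, with 3 higher and 4 lower in Old, as did most of the 9293 genes above 0 in all samples (45.5% higher and 48.6% lower in both pairs). At least 1.5-fold in both pairs was met by 1 member higher, the locus of Cmya5, and by 2 members lower, Flnc and Actn2. Of the 9293 genes, 6.64% met this rule higher and 9.37% met it lower. At least 2-fold in both pairs was met by Flnc alone, lower in Old, where 1.51% of these genes met it higher and 2.6% lower. Among the 540 genes with a mean of at least 100 FPKM, the shares were 4.81% higher and 12.0% lower at 1.5-fold, and 1.3% higher and 3.15% lower at 2-fold. With the crossed pairs as a block, limma called 3 members higher and 4 lower (adjusted p from 0.00783 for Actn2 to 0.0466 for Myom1). The 4 lower were Flnc, Ldb3, Actn2 and Tcap, and Ttn was not called (adjusted p = 0.0658 from limma). Of all genes tested, 27.4% were called higher and 32.9% lower, so these calls do not single out the members.

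Which members limma called changed with the scaling. With upper quartile scaling Flnc and Actn2 were called lower and 0 members higher (3.57% of all genes lower, 2.44% higher), and so they were with quantile normalization (1.91% lower, 1.2% higher) and with median scaling once genes listed at 0 were left out (5.71% lower, 3.45% higher). With median scaling over all genes 0 members were called (0.127% lower, 0.117% higher), as with the scaling by the median ratio (0.731% lower, 0.594% higher), with the replicate block (0.0292% lower, 0.0195% higher), and among genes with at least 1 FPKM in all 4 samples (0.0277% lower, 0.0553% higher), a filter that Ttn and Neb did not pass.

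**Figure D3:**
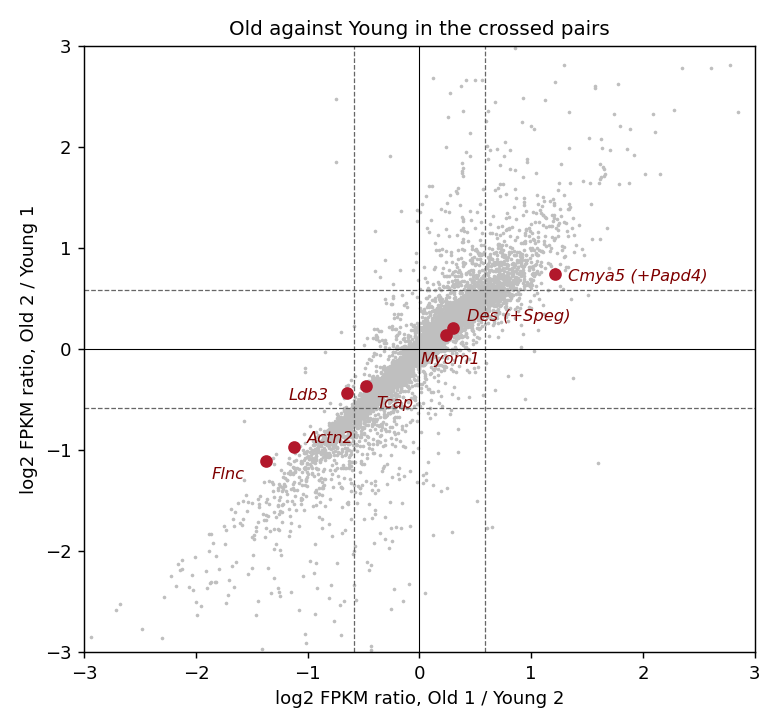
log2 ratio of FPKM of Old 1 over Young 2 (horizontal axis) and of Old 2 over Young 1 (vertical axis). Red points are the 7 members above 0 in all samples, grey points are other tested genes above 0 in all samples (points beyond the axes are not drawn), and dashed lines mark 1.5-fold. Flnc and Actn2 lie past 1.5-fold lower and the locus of Cmya5 past 1.5-fold higher in both pairs, while Myom1, Des, Tcap and Ldb3 do not.

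The start regions of Actn2, Flnc and Cmya5, the members past 1.5-fold in both pairs, are shown so that their letters can be set beside these values. RefSeq start sites (GRCm38.p6, the same assembly as mm10) were matched for 7 of the 9 members, and the 250 bases before the first listed start are printed 5′ to 3′ on the strand of the gene. Capitals mark matches, on either strand, to motifs of muscle transcription factors. These are the E-box CANNTG, the M-CAT motif CATTCC, the CArG box of SRF and a loose form of the MEF2 site (CTA, any 4 bases and TAG). The E-box pattern covers sites of MyoD and its relatives, and also those of other factors. The MEF2 pattern does not require its 4 middle bases to be A or T.
Actn2 (chr13:12340733-12340982, minus strand): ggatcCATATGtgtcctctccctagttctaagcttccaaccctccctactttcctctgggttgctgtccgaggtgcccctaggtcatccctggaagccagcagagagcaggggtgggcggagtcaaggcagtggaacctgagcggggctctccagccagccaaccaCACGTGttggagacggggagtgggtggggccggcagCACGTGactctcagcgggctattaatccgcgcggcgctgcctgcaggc
Flnc (chr6:29432903-29433152, plus strand): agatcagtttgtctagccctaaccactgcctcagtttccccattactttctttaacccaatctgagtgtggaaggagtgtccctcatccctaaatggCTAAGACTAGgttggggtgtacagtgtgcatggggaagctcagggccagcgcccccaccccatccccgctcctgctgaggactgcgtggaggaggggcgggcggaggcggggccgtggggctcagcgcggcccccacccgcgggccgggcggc
Cmya5 (chr13:93144725-93144974, minus strand): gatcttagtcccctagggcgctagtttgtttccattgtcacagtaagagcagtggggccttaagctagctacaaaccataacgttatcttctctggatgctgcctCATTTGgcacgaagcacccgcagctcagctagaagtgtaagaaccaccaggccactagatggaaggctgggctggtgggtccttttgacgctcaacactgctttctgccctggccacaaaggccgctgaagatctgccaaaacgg
The window of Actn2 held 3 E-boxes, of which those at 84 and 48 bases before the start read CACGTG. The printed window of Flnc held 1 match to the MEF2 pattern and no E-box, and the window of Cmya5 held 1 E-box. The 4 middle bases of the Flnc match, CTAAGACTAG, are not all A or T. Flnc also has another listed start, whose window held CATTCC at 104 bases before it and none of the other motifs. Of all 32851 windows of this length, 66.2% hold an E-box, 3.20% a MEF2 match, 12.6% CATTCC and 1.47% a CArG box. Among the other members Ttn held a MEF2 match and an E-box, Des 2 E-boxes, Myom1 3 E-boxes and a CArG box, and Ldb3 a CArG box. At another listed start of Ldb3 the window held a CArG box and a MEF2 match. This match reads CTATTCTTAG, so its middle bases are not all A or T either. A match describes the letters and is not shown to be a binding site.

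Among the giant filament genes, Ttn encodes titin, a giant protein of the sarcomere. Its locus lies on chromosome 2 from 76703557 to 76982547 (mm10, minus strand), and the longest annotated transcript has 106824 bases (GENCODE M21), the second longest of 8301 tested genes with a length. Ttn was listed at 0 in Old 1, at 0 in Old 2, at 14.1 FPKM in Young 1 and at 299 FPKM in Young 2. Both Old samples were thus below both Young samples, but the Young samples themselves differed 21.2-fold, more than the 7 members without a 0 did within an age. No fold between the ages can be given against samples listed at 0.

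Neb encodes nebulin, a giant protein along the thin filament. Its locus lies on chromosome 2 from 52136476 to 52338798 (mm10, minus strand), and its longest transcript has 22489 bases, which places it at rank 8 of the same genes. Neb was at 2361 FPKM in Old 1, at 0 in Old 2, at 0 in Young 1 and at 1775 FPKM in Young 2. The high and the listed-at-0 samples were split between the ages, and the 1 crossed pair with values gave a ratio of 1.33, Old over Young.

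Values of 0 beside high values also occurred in other genes. Of 836 genes with at least 100 FPKM in some sample, 62 were listed at 0 in another sample. Of these 62, 39 had the pattern of Neb, at 0 in Old 2 and Young 1 alone, and 5 had the pattern of Ttn, at 0 in both Old samples alone. Examples chosen after their values were seen are Rps15, a ribosomal protein gene that every cell uses, with 1919 FPKM in Old 1 and 1133 FPKM in Young 2 but 0 in both others, and Tnnt3, the fast-fiber troponin T gene, which shared the pattern of Ttn. Only 58.1% of the 62 genes had an annotated transcript length by symbol, so a comparison of their lengths with those of other genes is void. Titin and nebulin are needed by every skeletal muscle fiber, so the values of 0 for Ttn and Neb are reported as listed and not as an absence of transcript.

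At the M-band, Myom1 encodes myomesin 1, which crosslinks titin and myosin (chromosome 17 from 71018763 to 71127344, mm10, plus strand). The Old samples held 475 FPKM (Old 1) and 179 FPKM (Old 2), and the Young samples 163 FPKM (Young 1) and 404 FPKM (Young 2). Myom1 was 1.18-fold higher in Old in the high pair and 1.10-fold higher in the low pair. These differences are smaller than the robust SD of the ratio across genes, which is 0.425 and 0.456 on the log2 scale. This SD describes the spread between genes and is not the error of Myom1.

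At the Z-disc, Actn2 and Flnc were lower in both crossed pairs by about the same amount. Actn2 encodes alpha-actinin 2, which crosslinks the ends of thin filaments (chromosome 13 from 12266421 to 12340754, mm10, minus strand). Actn2 reached 242 FPKM in Old 1 and 113 in Old 2, while Young 1 held 221 FPKM and Young 2 held 527 FPKM. The Old 1 value lay between the values of the Young samples. The level in Old was 2.18-fold lower in the high pair and 1.95-fold lower in the low pair. Only 2.02% and 5.79% of genes above 0 in all samples had a lower ratio in these pairs. Across the 4 samples limma gave a log2 fold change of -1.04 with a standard error of 1.05 (adjusted p = 1.00). With upper quartile scaling the adjusted p from limma was 0.0397 and with quantile normalization 0.0295, while with median scaling it was 0.170.

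Flnc encodes filamin C, the filamin of muscle (chromosome 6 from 29428741 to 29461959, mm10, plus strand). Flnc stood at 94.6 FPKM in Old 1 and 42.9 in Old 2, while Young 1 held 92.5 FPKM and Young 2 held 245 FPKM. Old 1 and Young 1 were at nearly the same level as deposited, and Old 2 was the lowest of the 4. In the crossed pairs Flnc was 2.59-fold and 2.15-fold lower in Old, with 1.12% and 4.44% of genes lower still. Its log2 fold change in limma, -1.23 with a standard error of 0.98 (adjusted p = 1.00), kept its direction when any sample was left out, from -1.92 to -0.53, as did Actn2, from -1.66 to -0.41. With upper quartile scaling the adjusted p of Flnc from limma was 0.0417 and with quantile normalization 0.0183, while with median scaling it was 0.150.

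Ldb3, also known as Cypher or ZASP, encodes a PDZ and LIM domain protein that binds alpha-actinin at the Z-disc (chromosome 14 from 34526618 to 34588736, mm10, minus strand). Ldb3 had 1416 FPKM in Old 1 and 486 in Old 2, while Young 1 held 657 FPKM and Young 2 held 2223 FPKM. The ages overlapped as deposited, and in the crossed pairs Ldb3 was 1.57-fold and 1.35-fold lower in Old. Tcap encodes telethonin, which caps the ends of titin in the Z-disc (chromosome 11 from 98383811 to 98384953, mm10, plus strand), and with 948 bases its transcript is the shortest of the members. The FPKM of Tcap reached 4429 (Old 1) and 1563 (Old 2) at the later age and 2012 (Young 1) and 6185 (Young 2) at the earlier. In the crossed pairs it was 1.40-fold and 1.29-fold lower in Old. The direction of Tcap turned with quantile normalization (log2 fold change 0.036, standard error 0.70, adjusted p = 0.996 from limma), and the log2 fold change of Ldb3 was then -0.04.

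Cmya5 encodes myospryn, a large muscle protein that binds alpha-actinin and desmin. It is measured in 1 locus together with Papd4, a poly(A) polymerase gene next to it on the same strand (chromosome 13 from 93040576 to 93192337, mm10, minus strand), and the share of each gene in the value is unknown. The Old samples held 537 FPKM (Old 1) and 109 FPKM (Old 2), and the Young samples 64.9 FPKM (Young 1) and 232 FPKM (Young 2). Old 2 was below Young 2 as deposited, and within the crossed pairs the locus was 2.32-fold and 1.67-fold higher in Old. The ratio in these pairs was higher than that of 98.8% and 93.7% of genes above 0 in all samples. In limma the locus had a log2 fold change of 0.97 with a standard error of 1.02 (adjusted p = 1.00), which turned to -0.18 without Old 1.

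Des encodes desmin, the intermediate filament protein of muscle. Its locus is shared with Speg, a muscle kinase gene next to it on the same strand (chromosome 1 from 75359886 to 75432317, mm10, plus strand), so its value also holds that of Speg. It was at 2379 FPKM in Old 1 and 624 in Old 2, while Young 1 held 541 FPKM and Young 2 held 1938 FPKM. In the crossed pairs it was 1.23-fold and 1.15-fold higher in Old. This difference is smaller than the robust SD of the ratio across genes, which is not the error of this locus.

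The order of the levels within a sample does not depend on the scale of that sample. Of 21 pairs of the 7 members without a 0, the order of 3 pairs turned between the ages in every sample. These pairs were picked after their values were seen. How often the order turns among pairs of all genes was not counted, so the 3 pairs do not single out the members. The locus of Cmya5 was 5.67-fold above Flnc in Old 1 and 2.53-fold above it in Old 2, while the ratio was 0.702 in Young 1 and 0.946 in Young 2. Myom1 was 1.96-fold and 1.58-fold above Actn2 in Old 1 and Old 2, while the ratio was 0.738 in Young 1 and 0.766 in Young 2. Ldb3 was below the locus of Des in Old, with ratios of 0.595 in Old 1 and 0.779 in Old 2, and above it in Young, with 1.21 in Young 1 and 1.15 in Young 2. In all 4 samples Tcap came first. Below it Des was at rank 2 in both Old samples and Ldb3 at rank 2 in both Young samples, though these neighbours differed by less than the samples of an age did. The ratio of Flnc to Actn2 stayed between 0.379 and 0.391 in Old and between 0.418 and 0.464 in Young.

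**Figure D4:**
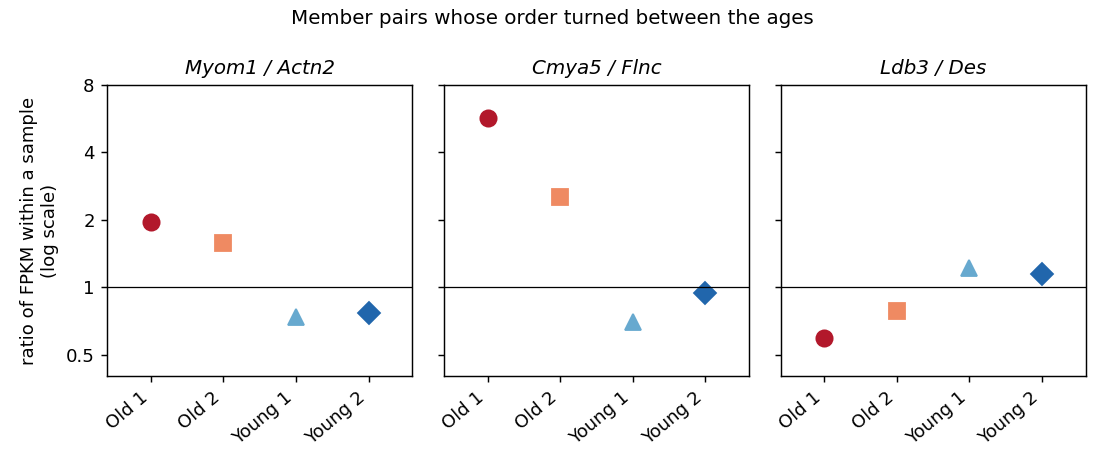
Ratio of FPKM between 2 members within a sample (log scale), 1 point per sample, for Myom1 over Actn2, the locus of Cmya5 over Flnc and Ldb3 over the locus of Des. The line marks a ratio of 1. The first 2 ratios are above 1 in both Old samples and below 1 in both Young samples, and the third is the reverse.

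The fast-fiber paralog of Actn2, Actn3, gave a different picture in each pair. Actn3 had 6170 FPKM in Old 1 but 771 in Old 2, and 3293 FPKM in Young 2 but 760 in Young 1. Actn2 was thus 3.78% of the summed FPKM of both genes in Old 1 against 13.8% in Young 2, and 12.8% in Old 2 against 22.6% in Young 1. The share was lower in Old within each pair, but Old 2 and Young 2 were close.

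Among other genes of the same structures, the differences were mostly small and ran both ways. Of 71 related genes on 7 lists, 59 had a value and 55 were tested, and limma called 0 of them with the values as deposited (0.302% of all genes tested), with 0 at an unadjusted p under 0.05. At least 1.5-fold in both crossed pairs was met by 4 of the 54 genes above 0 in all samples as higher in Old and by 6 as lower, shares near those of all genes (6.64% and 9.37%). The plot of related genes shows them by structure.

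**Figure D5:**
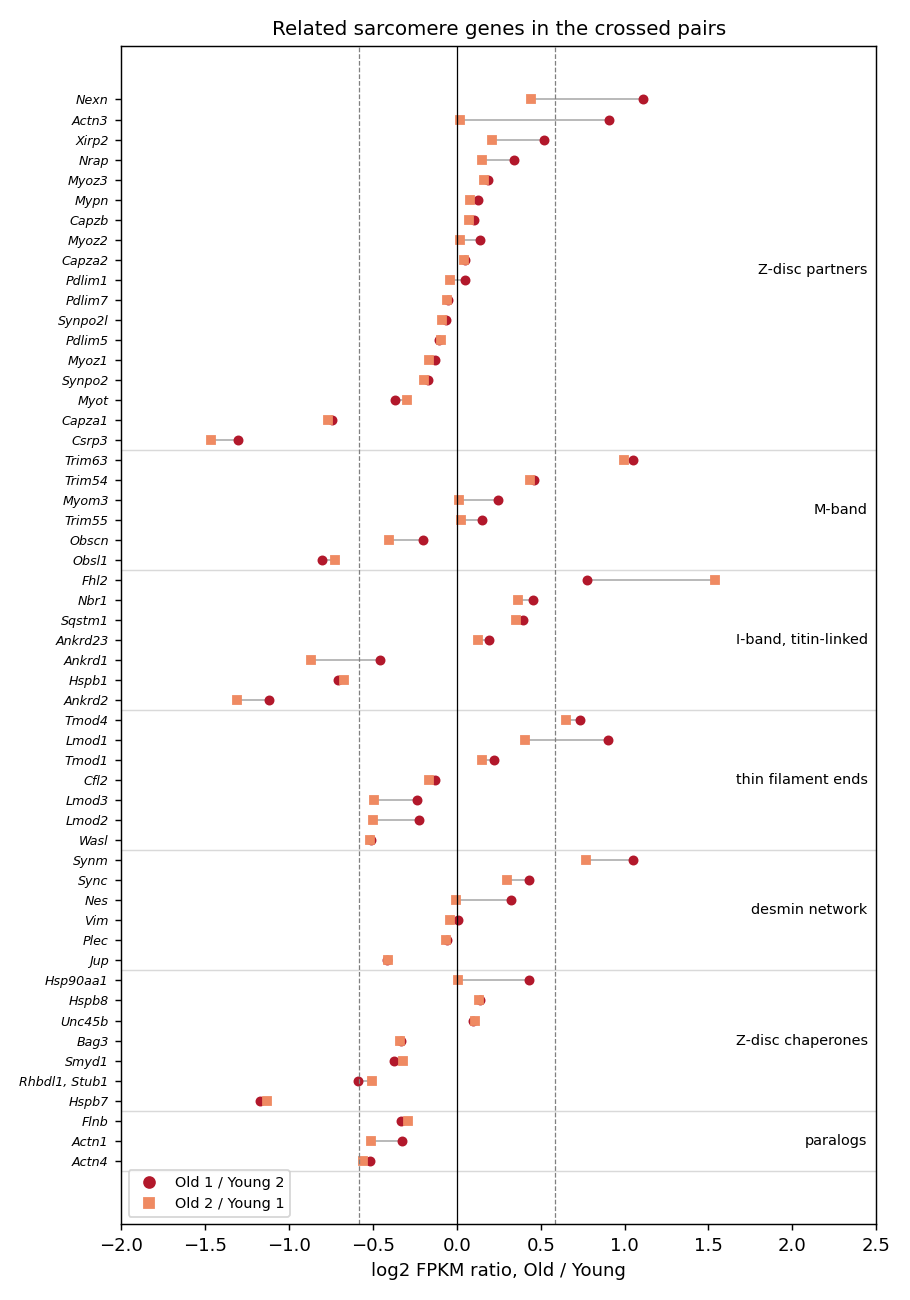
log2 ratio of FPKM, Old over Young, of the related genes above 0 in all samples, with circles for Old 1 over Young 2 and squares for Old 2 over Young 1. Genes are grouped by list, a gene on several lists is drawn once, and dashed lines mark 1.5-fold. Most genes lie between the dashed lines, with Csrp3, Ankrd2 and Hspb7 farthest to the left in both pairs.

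Of 18 Z-disc partners with a value, 0 were at least 1.5-fold higher in both pairs and 2 were lower, Csrp3 and Capza1. Csrp3 encodes muscle LIM protein, a binding partner of telethonin and alpha-actinin. It had 53.1 and 24.9 FPKM in the Old samples (1 and 2) and 68.7 and 131 FPKM in the Young samples, which is 2.46-fold and 2.76-fold lower in Old in the crossed pairs. Capza1, a subunit of the protein that caps actin at the Z-disc, was 1.68-fold and 1.70-fold lower. Nexn, which encodes the actin-binding protein nexilin, was 2.16-fold higher in Old in the high pair and 1.36-fold higher in the low pair. The myozenin genes Myoz1, Myoz2 and Myoz3, the myotilin gene Myot and the Pdlim genes with a value did not reach 1.5-fold in either pair.

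Of 7 M-band genes, 6 had a value, with 1 higher and 1 lower by at least 1.5-fold in both pairs. Trim63, the ubiquitin ligase MuRF1 that binds titin at the M-band, was past this fold as higher in Old in both pairs, with 2.07-fold in the high pair. Obsl1, which encodes obscurin-like 1, a partner of titin and myomesin, was 1.75-fold and 1.66-fold lower. Of 7 genes linked to the I-band of titin and above 0 in all samples, 2 were lower in this way. Ankrd2, a stretch-responsive ankyrin repeat gene, had 46.3 and 22.5 FPKM in the Old samples (1 and 2) and 55.7 and 101 FPKM in the Young samples (2.18-fold and 2.48-fold lower in Old). Hspb1, a small heat shock protein, was 1.64-fold and 1.60-fold lower. Ankrd1, of the same family as Ankrd2, was 1.37-fold and 1.83-fold lower. The third gene past 1.5-fold was Fhl2, higher in Old, but with at most 1.73 FPKM in any sample. Capn3, a protease bound to titin, had the pattern of Neb, with 150 and 172 FPKM in Old 1 and Young 2 and 0 in both others.

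For the thin filament ends, 7 of 10 genes had a value and 1, the pointed-end capping gene Tmod4, was at least 1.5-fold higher in both pairs (1.66-fold and 1.57-fold). The leiomodin genes Lmod2 and Lmod3, which lengthen thin filaments, had lower values in Old in both pairs, but by less than 1.5-fold. In the desmin network, 9 of 9 genes had a value and 6 were tested, and Synm, which encodes the desmin partner synemin, was higher in Old. The Old samples (1 and 2) held 273 and 106 FPKM of Synm and the Young samples 62.3 and 132 FPKM, which is 2.07-fold and 1.71-fold higher in the crossed pairs. Among 7 Z-disc chaperone genes with a value, 1 was at least 1.5-fold lower in both pairs. This was Hspb7, a small heat shock protein that binds filamin C, with 134 and 63.6 FPKM in the Old samples (1 and 2) and 139 and 302 FPKM in the Young samples (2.26-fold and 2.19-fold lower). The locus shared by Stub1 and Rhbdl1 was 1.51-fold and 1.42-fold lower. Of 8 paralogs of the members with a value, 0 reached 1.5-fold in both pairs, and the nonmuscle alpha-actinin gene Actn4 had ratios of Old over Young of 0.698 and 0.678.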

How the data were processed

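The 4 TA muscle samples, 2 per age, were grouped by the titles and ages in the labels, while the design text speaks of triplicates. The authors trimmed reads, took out PCR duplicates, aligned to mm10 with TopHat2 2.0.10, and deposited FPKM per locus for each sample, made with the Cufflinks programs (the labels name Cuffdiff 2.1.1). The sources differ on whether the kit kept the strand. Locus starts count from 0 in the files and are given from 1. The last, incomplete line of each table was left out. Tables stop in chromosome 7 or 8 in text order, and later genes were not analysed here. Loci of a symbol were summed over 20605 loci present in all samples. FPKM holds no counts, so no count test was run.

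limma 3.58.1 (R 4.3.3, trend, two-sided, Benjamini-Hochberg) was fitted to log2(FPKM + 1), which understates the change of low genes, for 10266 genes reaching 1 FPKM in 2 or more samples, with calls at an adjusted p under 0.05. The fit was also run on simulated data, with the same noise for every gene and a common factor per sample. These data did not copy the uneven ratios within an age or the values of 0 beside high values. The simulation therefore does not test the call for Ttn. Ratios, tests over samples and figures were made in Python 3.11.15 (pandas 2.3.3; numpy 2.4.6; for plots, matplotlib 3.10.9). Alternatives were other pseudocounts, filters, scalings and blocks, and leaving out each sample. The scaling by the median ratio and the fold rules in the crossed pairs were added after seeing the data.

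The members and lists were chosen with earlier results of these data known. All members are named, and of each related list up to 3 higher and 3 lower genes, those with the ages apart after median scaling and a log2 difference of at least 0.5. Other genes were named after their values were seen.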

Additional observations from a re-analysis of the deposited data

How the results depend on the processing

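The number of members called by limma (0 higher, 1 lower) became 3 higher and 4 lower with the crossed block, 0 and 0 with median scaling, with the scaling by the median ratio and when each of the 4 samples had to reach 1 FPKM, and 0 and 2 with quantile normalization, with upper quartile scaling and with median scaling without genes at 0. In these last 3 settings the 2 members were Flnc and Actn2. Ttn was not among the 4 called lower with the crossed block. At least 1.5-fold in both crossed pairs gave 1 and 2, at least 2-fold 0 and 1. The replicate block (same number paired) gave 0 and 0. The samples with the same number deviated from the mean of their age with a correlation of -0.885 across 10266 genes, so the numbers do not pair them, and the block took all genes called from 18 higher and 13 lower to 2 and 3. Over all genes the numbers were 4 and 2 when all samples had to reach 1 FPKM, 61 and 75 with the median ratio, 123 and 196 with quantile normalization, 251 and 366 with upper quartile scaling, 321 and 531 with median scaling without genes at 0, 2812 and 3374 with the crossed block, 617 and 871 with at least 1.5-fold in both pairs, and 140 and 242 with at least 2-fold. Members with the ages apart went from 0 higher and 1 lower to 2 and 5 with median scaling. The cause was not tested. With a sample left out, the lone sample of its age is assumed to vary like the other age. Then 2 to 6 genes were higher, 3 to 10 lower, and 0 to 1 members were called lower. The log2 fold changes then ran from -1.66 to -0.41 for Actn2, -1.92 to -0.53 for Flnc, -0.18 to 2.12 for Cmya5, -0.71 to 1.22 for Des, -1.42 to 0.34 for Ldb3, -0.52 to 0.88 for Myom1, -5.40 to 5.81 for Neb, -1.23 to 0.39 for Tcap and -8.23 to -3.92 for Ttn. With all samples kept, 1 of the log2 fold changes turned, that of Tcap to 0.036 with quantile normalization.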
